A study of Mus musculus with 6 samples.

Results

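Genes of epithelial host defence were followed through the sorted cells of the mouse airway surface. The members were the lines of the authors' per-gene log2 table whose symbol was Defb1, Lcn2, Ltf, Lyz1, Lyz2, Slpi, Wfdc2, Reg3g, Camp or Pigr, and all 10 were found among 20315 named genes. Primary surface airway cells of C57BL/6 mice, for which the labels name no treatment or genetic change in any group, were sorted by flow cytometry on EpCAM and divided into basal cells, which bound the lectin GSIβ4, club cells, which carried SSEA1, and ciliated cells, which lacked GSIβ4 binding and carried CD24. RNA of each population was hybridised to 2 arrays, 6 in all. The labels call the 2 arrays of a population biological replicates but give neither the age of the mice nor whether animals were pooled, so p-values measure only the spread between these arrays, which may be partly technical.

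The airway lining defends itself by secreting proteins into the surface fluid. Some of them puncture or digest bacteria, as defensins, cathelicidin, lysozyme and the lectin Reg3g do. Others starve bacteria of iron, as lactoferrin and lipocalin 2 do, and the small WAP-domain inhibitors hold back the proteases that leukocytes release. The polymeric immunoglobulin receptor Pigr adds an adaptive arm: it picks up dimeric IgA at the basal side of an epithelial cell and carries it to the surface, where part of the receptor stays attached as secretory component.

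Levels below are RMA log2 values, on which 1 unit is a 2-fold difference, given for replicates 1 and 2 of a cell type in that order. Because probes differ in brightness, a level of one gene is not set against that of another. The array medians lay between 6.79 and 6.92 and the lower quartiles between 5.55 and 5.69. Differences are given with the standard error of a limma fit over all genes, and a difference counts as called where the Benjamini-Hochberg adjusted p, taken over the whole table, was below 0.05. Foxj1 and Krt15 set the ciliated and the basal cells apart, but the club markers Scgb1a1 and Cyp2f2 did not separate club from ciliated cells. All 11 markers on the ciliated list rose in ciliated minus club. The ciliated marker Foxj1 was at 11.14 and 10.31 in ciliated cells and at 7.63 to 7.89 on the other 4 arrays, and the basal marker Krt15 was at 11.92 and 12.37 in basal cells and at 8.90 to 10.92 elsewhere. The club marker Scgb1a1 was at 14.31 and 13.98 in club cells, but also at 14.20 and 13.87 in ciliated and 13.05 and 13.02 in basal cells, and ciliated minus club was -0.11 (limma adjusted p = 0.78). The club marker Cyp2f2 was at 14.20 to 14.54 on all 6 arrays and was called in no contrast. These values, and those of Scgb1a1 in ciliated and club cells, lay near the array maxima of 14.40 to 14.54. No saturation flags were used here. Of the 10 markers on the club list, 7 rose in club minus basal, and 4 fell and none rose in ciliated minus club. Those 4, named after their values were seen, were Cldn10 (-2.70), Hp (-2.53), Scgb3a2 (-1.60) and Selenbp1 (-1.35). Between the replicates of a type, 613 genes of the basal pair lay over 1 log2 unit apart, against 100 of the ciliated pair and 193 of the club pair.

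Most of these genes were higher in club than in basal cells, and Defb1 was lower. The members were chosen with earlier results of these data known, so the shares of all genes beside them are a background and no test. In club minus basal, 8 of the 10 members rose and 1 fell, where 4.35% of all genes rose and 3.67% fell. In ciliated minus basal, 5 rose and 1 fell, against 9.29% and 8.28% of all genes. In ciliated minus club, none rose and 4 fell, against 7.93% and 7.46% of all genes. The median difference of the members was 2.07 in club minus basal, 1.51 in ciliated minus basal and -1.10 in ciliated minus club, while the median of all genes was -0.06, -0.02 and 0.04.

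**Figure D1:**
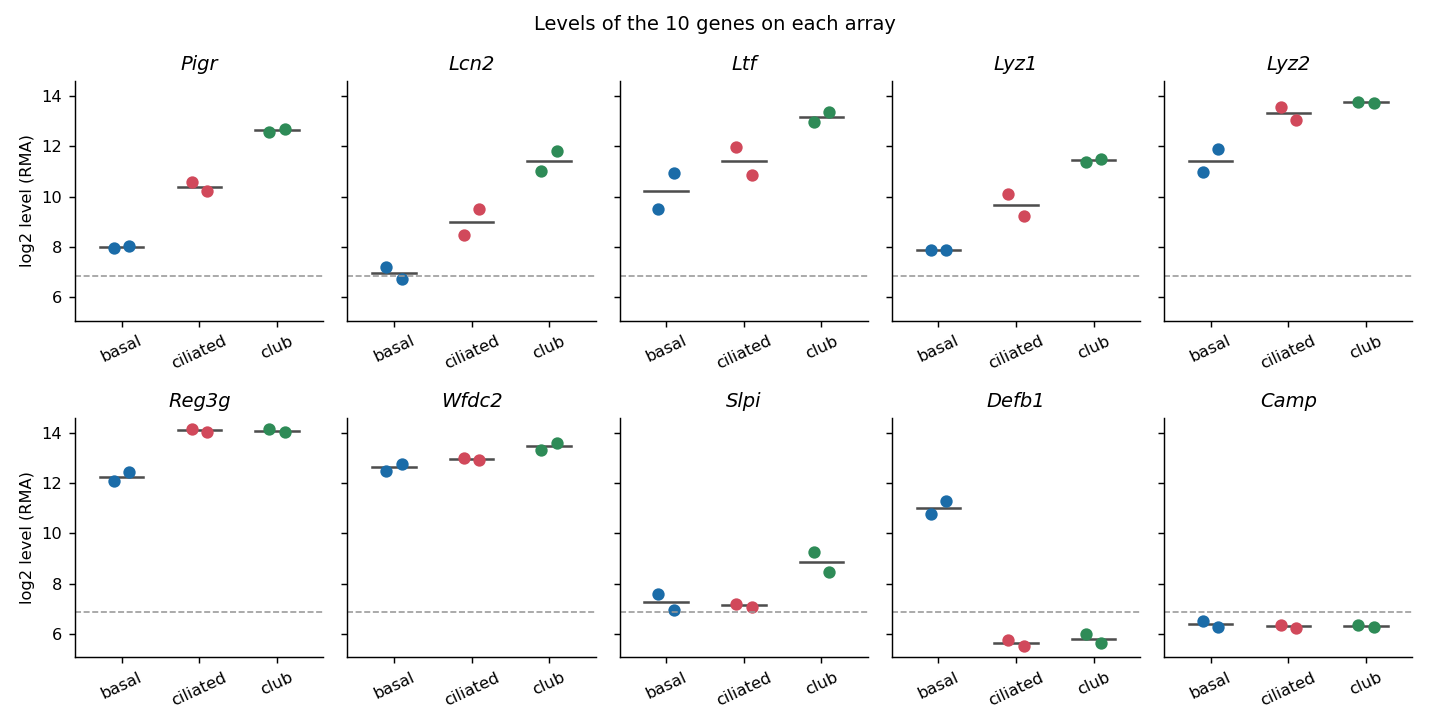
Log2 level (vertical axis) of each of the 10 genes on the 2 basal, 2 ciliated and 2 club arrays. Points are arrays, short bars are means of 2, and the dashed line is the mean of the array medians. Pigr, Lcn2 and Lyz1 climb from basal through ciliated to club cells, Defb1 is high on the 2 basal arrays alone, and Camp lies below the line on all 6; heights are not comparable between genes.

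Pigr, Lcn2, Lyz1 and Slpi, 4 members, were higher in club cells than in both other types, and 2.26% of all genes had that pattern. Defb1 was the 1 member higher in basal cells than in both others, a pattern of 2.79% of all genes. None was higher in ciliated cells than in both others, where 6.29% of all genes were. Since each value is an average over a sorted population, fewer expressing cells and less RNA per cell cannot be told apart.

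Pigr, the transporter of polymeric IgA, showed the clearest gradient. The 250 bases before its transcription start are shown with those of Lcn2 and the 2 lysozyme genes below because 3 of these genes, Pigr, Lcn2 and Lyz1, stepped up both from basal to ciliated and from ciliated to club cells. The sequence is that of the RefSeq promoter table in build GRCm38.p6, chr1:130826434-130826683 on the + strand, written 5′ to 3′ and ending at the base before the start. Capitals mark an E-box, the letters CACGTG, from 71 to 66 bases before the start.
Pigr promoter: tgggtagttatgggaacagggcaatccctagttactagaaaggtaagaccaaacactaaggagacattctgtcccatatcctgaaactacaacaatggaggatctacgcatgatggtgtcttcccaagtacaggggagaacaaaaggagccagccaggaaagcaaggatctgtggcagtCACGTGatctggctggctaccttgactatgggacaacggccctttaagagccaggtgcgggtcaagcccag
Of the 27025 genes with a promoter in that table, 6.05% had this hexamer in the same window, and of the 9 members with an entry, Pigr and Slpi had it. A match of letters is a description, not a site, and the absence of one says only that the letters are not in this window.

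Pigr was at 7.97 and 8.06 in basal cells, at 10.57 and 10.23 in ciliated cells and at 12.57 and 12.69 in club cells. The 3 pairs of arrays did not overlap, and the arrays of a type lay close together. Club cells exceeded basal cells by 4.62 ± 0.17 log2 units, which was the 5th-largest rise of any gene in that contrast. Ciliated cells lay about midway on the log2 scale. They exceeded basal cells by 2.39 ± 0.17, a 5.25-fold difference, and stood below club cells by a difference of -2.23 ± 0.17, so that on the linear scale their level was 21.3% of that in club cells. All 3 differences passed the limma test (adjusted p = 8.09e-05 for ciliated minus basal, 0.000137 for club minus basal and 0.000149 for ciliated minus club) and did so under every alternative run. On the chromosome, Pigr has the immunoglobulin receptor genes Fcamr and Fcmr on either side. Fcamr, a receptor for IgA and IgM, was at 7.76 and 6.03 in basal, 7.58 and 7.59 in ciliated and 9.21 and 8.29 in club cells and was not called in any contrast, and the mean of Fcmr was 5.92 to 5.97 in all 3 types.

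The iron-sequestering members both had their highest levels on the club arrays, though for Ltf the difference from ciliated cells was not called. Lipocalin 2, encoded by Lcn2, captures the siderophores with which bacteria scavenge iron. Its promoter window lies at chr2:32387740-32387989 on the - strand in GRCm38.p6. Capitals mark a match to TTNNGNAA, a pattern like the sites of the C/EBP factors that regulate acute-phase genes, on the reverse strand 216 to 209 bases before the start.
Lcn2 promoter: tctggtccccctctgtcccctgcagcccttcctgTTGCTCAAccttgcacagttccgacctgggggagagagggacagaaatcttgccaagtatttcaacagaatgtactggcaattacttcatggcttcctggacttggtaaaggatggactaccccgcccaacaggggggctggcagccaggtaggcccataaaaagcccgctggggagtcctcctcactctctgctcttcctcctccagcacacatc
On both strands, 6 of the 9 member promoters held TTNNGNAA (Lcn2, Ltf, Lyz1, Lyz2, Slpi and Wfdc2), and 36.9% of all promoters did. An NF-kB-like pattern, GGG and CC with 5 bases between, was in 5 of 9 (Lcn2, Ltf, Wfdc2, Reg3g and Pigr) against 45.4%. The ETS-like hexamer AGGAAG was in 7 of 9, all but Slpi and Pigr, against 29.2%, the TATA box TATAAA in Reg3g alone against 3504 of the 27025 promoters, and an IRF-like pattern, TTTC and TTTC with 2 bases between, in none against 3.04%. No match of one motif overlapped a match of another.

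Lcn2 was at 7.19 and 6.72 in basal, 8.46 and 9.51 in ciliated and 11.02 and 11.83 in club cells. The 3 pairs did not overlap, with basal levels near the array median and the ciliated arrays a full unit apart. Club cells exceeded basal cells by 4.47 ± 0.40 (limma adjusted p = 0.0008), the 6th-largest rise, and ciliated minus club was -2.44 ± 0.40 (adjusted p = 0.0055). The rise from basal to ciliated cells was 2.03 ± 0.40, a 4.08-fold difference (adjusted p = 0.011, and 0.0067 to 0.080 over the alternatives). It was 1.51 and was not called without ciliated replicate 2, the higher of the 2 ciliated arrays.

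Lactoferrin, the iron-binding glycoprotein of secretions and neutrophil granules, had the widest replicate error of the members. Ltf was at 9.52 and 10.93 in basal, 11.99 and 10.88 in ciliated and 12.95 and 13.35 in club cells. Club arrays lay above all others, whereas basal and ciliated arrays overlapped. Its residual SD of 0.75 exceeded that of 99.5% of all genes, whose median was 0.18. Club minus basal was 2.93 ± 0.50, a 7.60-fold difference (limma adjusted p = 0.013, and 0.0031 to 0.075 over the alternatives). It was not called without club replicate 1 (3.12, adjusted p = 0.051) or club replicate 2 (2.73, adjusted p = 0.075), and was 2.22 without basal replicate 1 and 3.63 without basal replicate 2. Ciliated minus basal was 1.21 ± 0.50 (adjusted p = 0.17), which missed the threshold with all arrays. It was 1.92 and passed without basal replicate 2 (adjusted p = 0.021), was 0.50 without basal replicate 1 (adjusted p = 0.51) and 0.65 without ciliated replicate 1, and the adjusted p reached 0.61 over the alternatives. Ciliated minus club was -1.71 ± 0.50 (adjusted p = 0.063) and passed under 7 of the 15 alternatives. Among them was the removal of either basal array, which repeats the fit of the 2 types alone.

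The lysozymes cleave the peptidoglycan of bacterial walls. Mice carry a pair of genes for the enzyme, which stand side by side on chromosome 10 with 0 coding genes between them; Lyz1 is known from the Paneth cells of the intestine and Lyz2 from macrophages and alveolar type 2 cells. Their promoter windows lie at chr10:117292869-117293118 for Lyz1 and chr10:117282273-117282522 for Lyz2, both on the - strand in GRCm38.p6. They are shown because the tandem copies have related upstream sequence and different patterns across the cells. Capitals mark the longest run that both share.
Lyz1 promoter: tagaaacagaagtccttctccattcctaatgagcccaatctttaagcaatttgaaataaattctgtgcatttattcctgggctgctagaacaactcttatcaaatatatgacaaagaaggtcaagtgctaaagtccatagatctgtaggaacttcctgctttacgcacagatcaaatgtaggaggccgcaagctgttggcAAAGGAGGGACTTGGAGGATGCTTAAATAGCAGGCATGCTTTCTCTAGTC
Lyz2 promoter: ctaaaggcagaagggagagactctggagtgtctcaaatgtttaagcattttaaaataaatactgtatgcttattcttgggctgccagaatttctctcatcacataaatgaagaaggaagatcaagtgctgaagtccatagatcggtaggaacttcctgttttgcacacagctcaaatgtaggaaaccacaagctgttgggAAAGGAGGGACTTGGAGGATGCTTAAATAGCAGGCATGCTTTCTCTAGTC
The shared run is the 50 bases next to the start. Position by position, 60.8% of the 250 bases were identical, and in a gapped alignment 200 of 248 paired bases were, or 80.6%. In the other 35 pairs of member promoters the position-by-position share was 19.6 to 31.6% and the longest shared run 12 bases.

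Lyz1 rose in 2 steps. It was at 7.86 and 7.87 in basal, 10.09 and 9.25 in ciliated and 11.40 and 11.49 in club cells, with no overlap between types. Ciliated minus basal was 1.80 ± 0.26, club minus basal 3.57 ± 0.26 and ciliated minus club -1.77 ± 0.26 (limma adjusted p = 0.0029, 0.00045 and 0.0038), and each was called under every alternative.

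Lyz2 rose mainly from basal to ciliated cells. It was at 10.99 and 11.88 in basal, 13.57 and 13.07 in ciliated and 13.79 and 13.73 in club cells. The basal arrays lay below all others, and the ciliated arrays lay slightly below the club arrays. The ciliated and club values were higher than those of over 99.6% of the genes on their arrays, and no saturation flags were used here. Club minus basal was 2.32 ± 0.31, a 5.01-fold difference (adjusted p = 0.0044), and ciliated minus basal 1.89 ± 0.31 (adjusted p = 0.0047, and 0.00065 to 0.052 over the alternatives). The latter was 1.63 and just missed the threshold without ciliated replicate 1 (adjusted p = 0.052). Ciliated minus club was -0.44 with a 95% interval of -1.15 to 0.28 (adjusted p = 0.43), so a difference of that size could not be told from the spread. Transcripts of such similar genes may share probes, and how the probes of the array separate them was not analysed here.

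**Figure D2:**
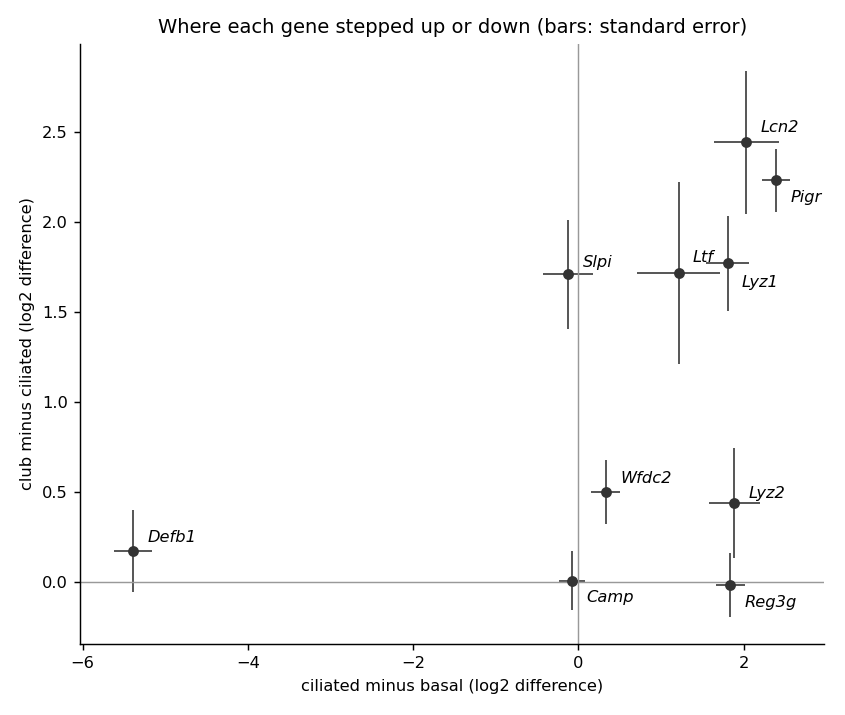
Each gene's difference from basal to ciliated cells (horizontal axis, log2) against its difference from ciliated to club cells (vertical axis, log2), with standard errors of the fit as bars. Pigr, Lcn2, Lyz1 and Ltf lie to the upper right, Slpi changes on the vertical axis only, Reg3g and Lyz2 mainly on the horizontal one, Camp sits at the origin and Defb1 far to the left. The axes share the ciliated arrays, so the points show no correlation of independent values.

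Reg3g, a C-type lectin that binds the peptidoglycan of Gram-positive bacteria, separated basal from luminal cells. It was at 12.09 and 12.42 in basal, 14.17 and 14.02 in ciliated and 14.14 and 14.02 in club cells. The 4 luminal arrays were nearly level and all stood above the basal arrays. The luminal values were higher than those of over 99.9% of the genes on their arrays, whose maxima were 14.41 to 14.54, and no saturation flags were used here. Ciliated minus basal was 1.84 ± 0.18 and club minus basal 1.82 ± 0.18, about 3.57-fold and 3.53-fold (limma adjusted p = 0.00033 and 0.0011), and both were called under every alternative. Ciliated minus club was 0.02 with a 95% interval of -0.40 to 0.43.

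The WAP-domain members differed in how far they moved. Slpi encodes the secretory leukocyte protease inhibitor, which blocks neutrophil elastase and cathepsin G. It was at 7.58 and 6.95 in basal, 7.19 and 7.09 in ciliated and 9.24 and 8.45 in club cells. The club arrays stood above the other 4, which overlapped. Club minus basal was 1.58 ± 0.30 (limma adjusted p = 0.021), and ciliated minus club -1.71 ± 0.30 (adjusted p = 0.0084), whereas the difference from basal to ciliated cells was -0.13 with a 95% interval of -0.84 to 0.59. The first was not called in 5 of the 15 alternatives, namely a fit of the 2 types alone and without basal replicate 2, either ciliated array or club replicate 1 (values of 1.19 to 1.98 over all alternatives). For club minus basal, removal of either ciliated array repeats the fit of the 2 types alone. For Slpi, ciliated minus club was not called without either ciliated array (-1.76 and -1.66, adjusted p = 0.064 and 0.081; 0.0015 to 0.081 over all alternatives).

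Wfdc2, a secreted WAP-domain protein of airway epithelium, was at 12.49 and 12.77 in basal, 13.01 and 12.90 in ciliated and 13.33 and 13.59 in club cells. The types did not overlap, but they lay within about 1 unit of each other. Club minus basal was 0.83 ± 0.18, a 1.78-fold difference (limma adjusted p = 0.031). It was not called in 8 of the 15 alternatives (adjusted p = 0.019 to 0.18), among them cyclic loess (0.51), quantile normalization applied again (0.48) and the removal of basal replicate 1 (0.69) or of any 1 ciliated or club array (0.70 to 0.96). Removal of either ciliated array repeats here the fit of the 2 types alone. The difference from basal to ciliated cells was 0.33 (adjusted p = 0.29), with the sign turned (-0.08) after quantile normalization was applied again, and ciliated minus club was -0.50 (adjusted p = 0.11). Slpi and Wfdc2 lie on chromosome 2 with 7 coding genes between them.

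Defb1, an antimicrobial peptide of the beta-defensin family that many epithelia make without stimulation, ran the other way. It was at 10.77 and 11.29 in basal, 5.77 and 5.51 in ciliated and 5.98 and 5.64 in club cells. The basal arrays were far above the rest, and the luminal arrays lay near the lower quartile of all genes, with 22.5 to 33.6% of genes below. Ciliated minus basal was -5.39 ± 0.23 and club minus basal -5.22 ± 0.23 (limma adjusted p = 7.56e-06 and 0.000137), and both were called under every alternative. Whether the luminal signals exceed background was not measured here, so these sizes hold on the scale of the deposited values and may fall short of the difference in RNA. Ciliated minus club was -0.17 with a 95% interval of -0.71 to 0.36. Defb1 was the 1 member among the 50 genes of the authors' deposited table of basal genes. The basal score given there was made from these same 6 arrays, so it is no separate evidence.

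Camp, which encodes the cathelicidin precursor stored in neutrophil granules, was at 6.51 and 6.27 in basal, 6.37 and 6.25 in ciliated and 6.37 and 6.27 in club cells. All 6 values lay below the median of their array, with 37.8 to 43.0% of genes below, and the types overlapped. The differences were -0.08, -0.07 and -0.01, with 95% intervals within -0.46 and 0.37, and none was called under any alternative.

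**Figure D3:**
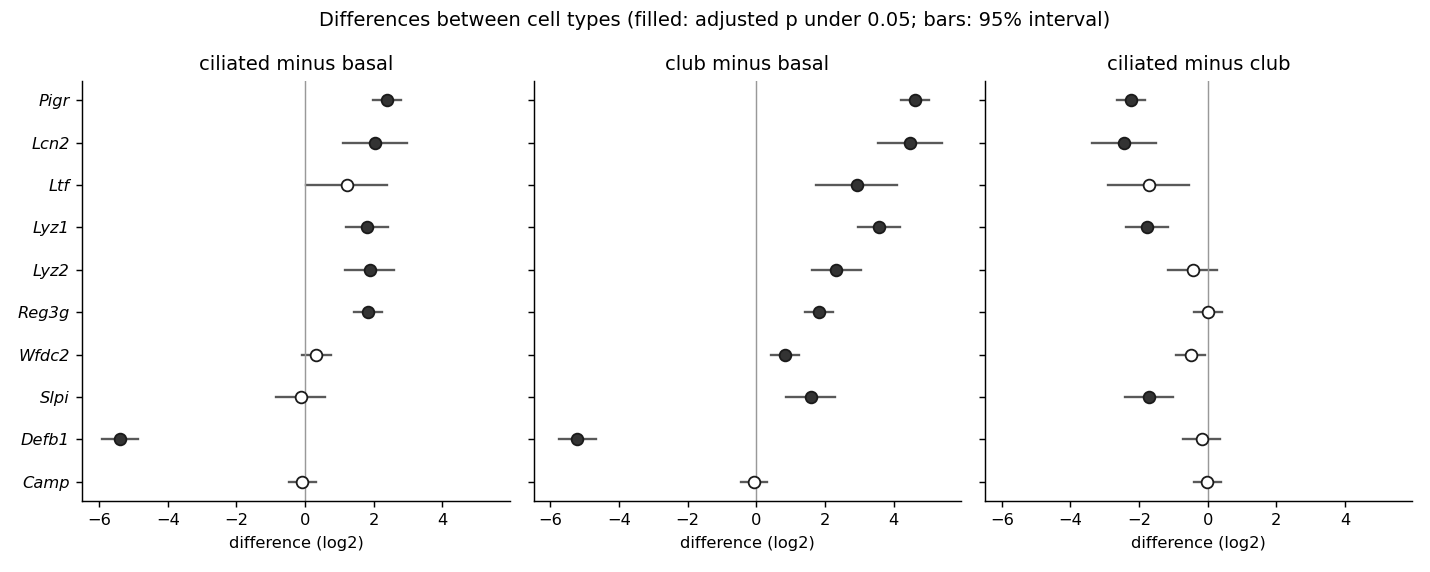
Differences between cell types (horizontal axes, log2) of the 10 genes in the 3 contrasts, with 95% intervals as bars; filled points passed an adjusted p under 0.05. Pigr and Lcn2 exceed 4 units in club minus basal, Defb1 lies below -5 in both contrasts with basal cells, and 4 filled points stand left of 0 in ciliated minus club.

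Genes with the most similar pattern were sought over the 6 arrays for those members, 6 in all, whose cell-type means spanned at least 2 log2 units, as the root mean square difference of log2 values after each gene's mean was taken off. Among the 3 nearest to Pigr were Slc1a1 (0.45) and Lyz1 (0.45), and among the 3 nearest to Lyz1 were the mucin gene Muc20 (0.35) and Abca13 (0.36). Muc20 averaged 6.88 in basal cells, 8.17 in ciliated cells and 9.86 in club cells. Lcn2 was nearest to the glutamate transporter gene Slc1a1 (0.46), the plasminogen activator gene Plat (0.47) and complement factor B, Cfb (0.47). Ltf was nearest to Slc38a1 (0.40), the trefoil gene Tff2 (0.43) and Kdelr3 (0.43), at distances that its own replicate error widens.

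The distance is not scaled to a gene's span of means, which was 2.32 log2 units for Lyz2, 4.62 for Pigr and 5.39 for Defb1. Distances are therefore not compared between members. The genes nearest to Lyz2 were Tspan13 (0.23), Atp2c2 (0.26) and Pglyrp1 (0.26). Pglyrp1, a peptidoglycan recognition protein, had means of 10.95 in basal cells, 12.94 in ciliated cells and 13.44 in club cells. Reg3g was the other member nearest to Lyz2 (0.30). For Defb1 the nearest genes were Trim29 (0.54), Ccdc3 (0.55) and the proteoglycan gene Dcn (0.61), all basal-high. Its nearest other member was Camp (2.48), which was nearly level over the arrays, and 8549 genes were closer to Defb1 than Camp was.

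The relatives and partners of the members were read from 10 lists chosen by role, with earlier results of these data known, 179 measured genes in all. In club minus basal 19 rose and 6 fell, where 4.35% and 3.67% of all genes did. In ciliated minus basal 21 rose and 17 fell, against 9.29% and 8.28%, and in ciliated minus club 9 rose and 22 fell, against 7.93% and 7.46%. Their median differences were 0.01, 0.05 and 0.02. The same shares of all genes are the background for the counts of each list below, and no list was tested against them.

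Of 15 other beta-defensins, 1 was called, in ciliated minus basal alone: Defb15, at 5.51 and 5.49 in basal and 6.29 and 6.16 in ciliated cells (0.73 ± 0.15, limma adjusted p = 0.014), a call lost without either ciliated array (adjusted p up to 0.097). Of 6 other Reg lectins, Reg4 was higher in club cells, with 7.91 and 6.95 there against 5.69 and 5.71 in basal and 5.96 and 5.63 in ciliated cells (adjusted p = 0.014 and 0.010), and Reg3d was higher in ciliated than in basal cells by 1.34 ± 0.30 (adjusted p = 0.020). The Reg4 call against ciliated cells was lost without either ciliated array (adjusted p up to 0.0995), and the Reg3d call without basal replicate 1 or ciliated replicate 2 (adjusted p up to 0.144). Of 8 other lysozyme family genes, Lyzl4 alone was called, in ciliated minus basal (0.86 ± 0.21, adjusted p = 0.029), and was lost without basal replicate 1 or either ciliated array (adjusted p up to 0.16).

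Of 18 other WAP genes, 3 rose and 1 fell in ciliated minus basal, 1 rose and 1 fell in club minus basal, and 3 rose and 1 fell in ciliated minus club. Wfdc1 was at 10.57 and 10.73 in club cells, 8.43 and 7.77 in ciliated and 7.07 and 7.67 in basal cells, and exceeded both others there (3.28 ± 0.28 over basal, adjusted p = 0.00069). Wfdc13 was instead high in ciliated cells, with 7.29 and 7.71 against 5.19 to 5.48 on the other 4 arrays (2.19 ± 0.19 over basal, adjusted p = 0.00022). Of 17 other lipocalins, 2 (11.8%) rose from basal to ciliated cells and 1 (5.88%) from basal to club cells. These lay near the shares of all genes, 9.29% and 4.35%. In ciliated minus club 2 lipocalins rose and 1 fell. Among them Orm2 and Orm1 encode orosomucoids, plasma proteins of the acute phase. Orm2 was at 9.67 and 10.42 in ciliated cells against 5.30 to 6.07 elsewhere, and Orm1 at 9.86 and 11.21 against 6.36 to 7.52; both exceeded basal and club cells (adjusted p = 7.58e-05 to 0.0019).

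Of 15 iron-handling genes measured, 5 rose and 1 fell in club minus basal, and none rose and 6 fell in ciliated minus club. Cp, the ferroxidase ceruloplasmin, was at 12.51 on both club arrays, 11.34 and 11.37 in ciliated and 9.39 and 8.32 in basal cells; club minus basal was 3.66 ± 0.32 (limma adjusted p = 0.00075). Hp, the haemoglobin-binding protein haptoglobin, which is also on the club marker list, was at 11.29 and 11.70 in club against 9.20 and 8.73 in ciliated and 7.97 and 8.59 in basal cells (3.21 ± 0.27 over basal, adjusted p = 0.00069). The Cp difference between ciliated and club cells (-1.15, adjusted p = 0.049) was lost in 7 of 15 alternatives, among them the removal of any ciliated or club array (adjusted p = 0.0015 to 0.22 over all alternatives).

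Of 27 other antimicrobial genes, 7 rose and none fell in club minus basal, and 7 rose and none fell in ciliated minus basal. The 2 named here are also on the serous marker list. Bpifb1, a secreted BPI-fold protein, was at 7.33 and 10.57 in basal, 12.58 and 11.87 in ciliated and 13.74 and 13.98 in club cells. Dmbt1, a scavenger receptor protein that agglutinates bacteria, was at 9.60 and 6.56 in basal, 9.94 and 9.11 in ciliated and 12.33 and 12.71 in club cells. Both had basal arrays over 3 units apart, in opposite order. Their club minus basal differences of 4.91 ± 0.88 and 4.44 ± 0.84 (limma adjusted p = 0.016 and 0.020) were lost when any 1 ciliated or club array was left out (adjusted p up to 0.076 and 0.094). Without basal replicate 1 they were 3.29 for Bpifb1 and 5.96 for Dmbt1, and without basal replicate 2 they were 6.53 and 2.92. The Bpifb1 rise from basal to ciliated cells (3.28 ± 0.88, adjusted p = 0.042) was lost in 7 alternatives, again with any ciliated or club array removed (adjusted p up to 0.23), and was 1.66 without basal replicate 1 and 4.90 without basal replicate 2.

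Of 23 genes of IgA recruitment, transport and sorting other than Pigr, 4 rose and 1 fell in club minus basal, 2 rose and 2 fell in ciliated minus basal, and 1 rose and 3 fell in ciliated minus club. Ccl28, the chemokine that draws IgA-secreting plasma cells to mucosae, was at 6.25 and 6.76 in basal, 9.20 and 9.52 in ciliated and 9.41 and 9.53 in club cells. It separated basal from luminal cells by 2.85 ± 0.22 and 2.96 ± 0.22 (adjusted p = 9.89e-05 and 0.00043). Tgfb1, whose product promotes switching of B cells to IgA, fell from 9.48 and 9.20 in basal to 6.78 and 7.24 in ciliated and 7.03 and 7.48 in club cells (adjusted p = 0.00042 and 0.0021). Jchain, which encodes the chain that joins IgA into dimers and marks plasma cells, was at 4.53 to 4.91 on all 6 arrays, below every lower quartile; it is named here after its values were seen.

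Of 32 genes of the IL-17 and IL-22 receptors and of inducible regulators, which drive several of the members in other epithelia, 3 rose and 9 fell in ciliated minus basal, 1 rose and 3 fell in club minus basal, and 2 rose and 5 fell in ciliated minus club. Il22ra1, the ligand-binding chain of the IL-22 receptor, was at 9.85 and 10.37 in ciliated cells against 6.83 to 7.68 on the other 4 arrays (2.73 ± 0.25 over basal and 3.25 ± 0.25 over club, adjusted p = 0.00029 and 0.00015). Cebpd, a transcription factor of the acute phase, was lower in ciliated cells, at 7.60 and 7.49 against 8.89 to 9.33 elsewhere (adjusted p = 0.00074 and 0.00043).

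Of 20 genes listed for the proteases that the members inhibit or that process them, which include the protease substrate gene Grn, none rose in any contrast, 4 fell in ciliated minus basal and 2 in ciliated minus club, Grn among both. Furin, a proprotein convertase, was at 10.17 on both basal arrays, 8.36 and 8.03 in ciliated and 9.33 and 9.69 in club cells (ciliated minus basal -1.97 ± 0.19, adjusted p = 0.00037). Grn, the progranulin gene, whose product Slpi protects from elastase, was at 10.42 and 10.68 in basal, 8.83 and 8.82 in ciliated and 9.91 and 10.92 in club cells (adjusted p = 0.0074 for ciliated minus basal and 0.012 for ciliated minus club, each lost without either ciliated array, with adjusted p up to 0.068 and 0.096).

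**Figure D4:**
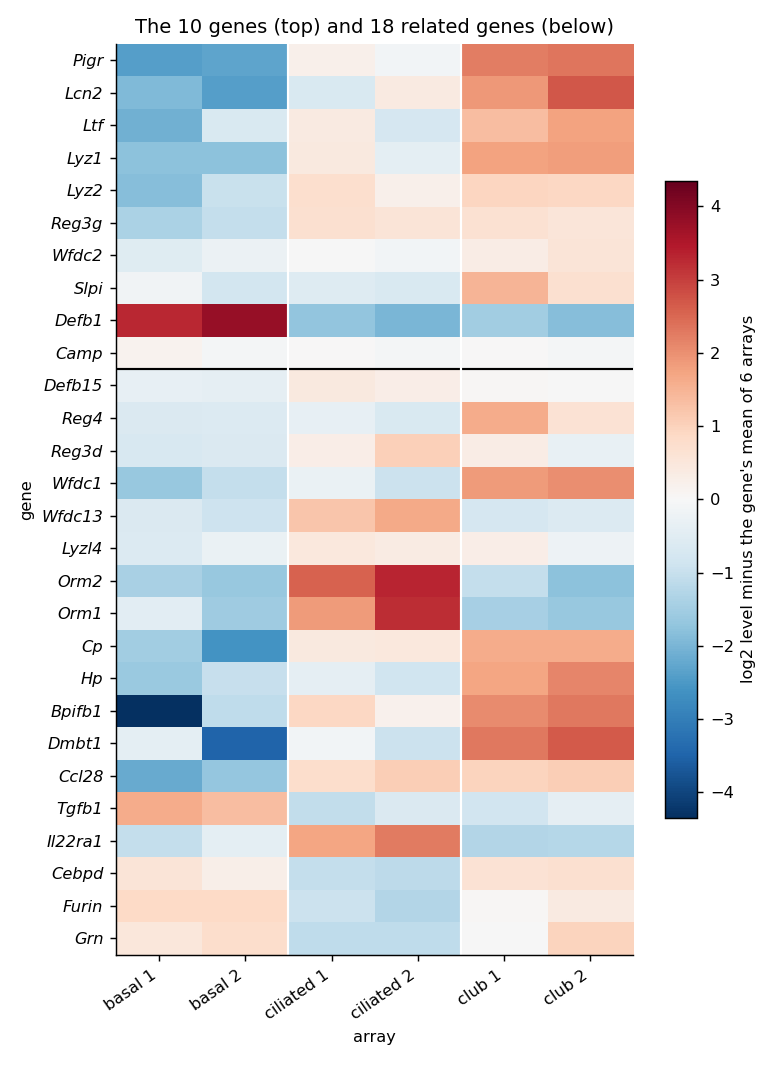
Log2 level minus the gene's mean of 6 arrays (colour) for the 10 members (above the line) and the 18 related genes named from the lists (below), with arrays in columns. Red is above and blue below the gene's own mean; Orm1, Orm2, Il22ra1 and Wfdc13 are red in ciliated cells, Wfdc1 and Hp in club cells, and the basal arrays differ from each other in Bpifb1 and Dmbt1.

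Several members are also made by leukocytes and gland cells, so markers of those cells were read beside them. All 16 neutrophil markers lay below the array median on the basal and club arrays and 15 of 16 on the ciliated arrays, with list medians of 5.56 to 5.70. Prtn3, the granule protease gene named by the rule, was at 5.95 to 6.57. The exception was Cd177, at 10.24 and 10.41 in ciliated cells and 6.44 to 6.60 elsewhere. The part of neutrophils in the levels of the members was not tested. The 17 macrophage and monocyte markers had list medians of 6.98 and 6.77 in basal, 6.23 and 5.96 in ciliated and 5.86 and 5.77 in club cells. In club minus basal none of them rose and 7 fell, where 4.35% and 3.67% of all genes did. Lyz2 rose in that contrast, and the part of macrophages in its level was not tested. The macrophage list's genes with the highest signal, which does not rank abundance between genes, were Cd14, at 8.81 to 10.79, and Cd68, at 7.54 to 9.09. The pan-leukocyte gene Ptprc was at 5.17 to 5.68 and was called in no contrast. Among the 7 that fell, C1qb was at 8.67 and 8.40 in basal and 5.70 and 5.57 in club cells. Laptm5, also among them, was at 7.45 and 7.36 in basal and 5.86 and 6.09 in club cells. Ptprc, C1qb and Laptm5 are named after their values were seen.

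Markers of secretory cells were read in the same way. The club list had medians of 10.36 and 10.79 in basal, 12.07 and 11.91 in ciliated and 12.66 and 12.91 in club cells, and its log2 summed level was 15.42 and 15.52, 16.44 and 16.27, and 16.64 and 16.51. The goblet list had medians of 6.93 and 7.61, 8.24 and 7.54, and 8.83 and 9.45 in the same order of types, so that basal and ciliated arrays overlapped and club arrays were highest, with Muc5b at 7.73 and 9.14, 11.57 and 10.72, and 13.25 and 13.68 and Agr2 at 10.17 to 10.46, 11.34 to 11.85 and 12.60 to 12.83. The serous list of 8 measured genes had medians of 7.63 and 6.88, 8.04 and 7.60, and 8.43 and 8.45, with Bpifa1 at 13.92 to 14.50 on all arrays. The part of secretory cells in the intermediate levels of Pigr, Lcn2 and Lyz1 on the ciliated arrays was not tested.

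The alveolar type 2 list, relevant to Lyz2, had medians of 6.76 and 6.66 in basal, 8.03 and 7.73 in ciliated and 8.94 and 9.78 in club cells. Its brightest genes were Sftpa1, at 12.76 and 13.09 in club cells, and Sftpd, at 11.06 and 11.83. Sftpc, the defining gene of that cell, was at 5.21 to 5.47 in basal and club cells and at 9.17 and 8.36 in ciliated cells. It is named here after its values were seen, and its part in the Lyz2 level of ciliated cells was not tested. Plasma and B cell markers had list medians of 5.98 to 6.41 with 6 or 7 of 9 below the array median, and the brightest, Sdc1 at 10.37 to 11.69 and Cd79b at 6.62 to 7.61, include Sdc1, which epithelia also express.

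**Figure D5:**
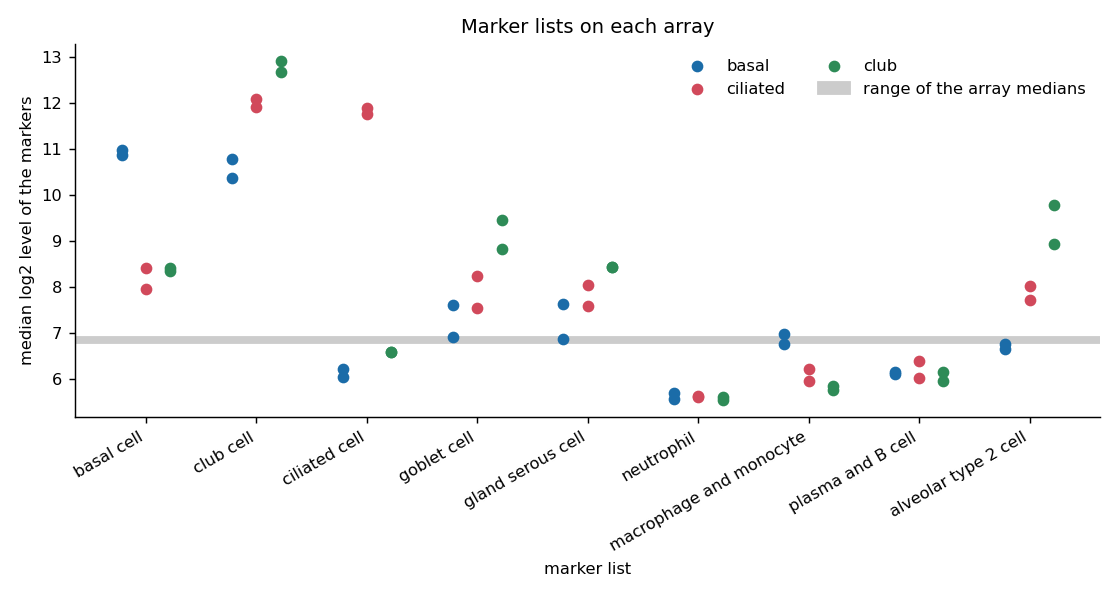
Median log2 level (vertical axis) of 9 marker lists on each array, with points coloured by cell type and a grey band for the range of the array medians. Neutrophil and plasma cell lists lie below the band in every type, the macrophage list falls from basal to club, and the club, goblet, serous and alveolar type 2 lists are highest on club arrays.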

How the data were processed

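Total RNA of sorted mouse airway cells was labelled with biotin by an Affymetrix protocol, per the labels. The deposited values are log2 signals; the submitters' processing notes name RMA, with no version, which corrects background, quantile-normalizes arrays and summarises probes. Platform, genome build and annotation: not given in the sources used here. Each member's deposited log2 value equalled 1 probe set of the authors' matrix of 35556 on all 6 arrays within 1e-06. From the log2 values the authors also made an enrichment score for every gene in each type, named a z-score by the deposited header; it was recomputed as a check and not tested. The 18 columns of another study were not used.

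No normalization was added. A limma 3.58.1 model (R 4.3.3) of 3 cell-type means was fitted over 20315 genes, with empirical Bayes moderation and Benjamini-Hochberg adjustment per contrast. Only 2 arrays per type limit the precision. The members and lists were chosen with earlier results of these data known. Named genes are the members, the 3 nearest patterns of members spanning 2 log2 units (predicted models passed over, and 1 gene not reported here), the 2 called genes of each list with the largest difference and the 2 brightest genes of each marker list. Promoters and gene order come from RefSeq tables, and 280 of 306 list entries were found, by symbol alone. The fit was tested on simulated data. Alternatives were 3 normalizations, a filter on dim genes, 3 variance settings, the 2 types alone, a replicate block and leaving out each array. For a contrast, leaving out an array of the type not compared repeats the fit of the 2 types alone. Such alternatives are not separate evidence.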

Additional observations from a re-analysis of the deposited data

How the results depend on the processing

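Of the 30 member differences, 19 were called and 13 of these under all 15 alternatives; of the 11 not called, 9 were called under none, and no called difference changed sign. With each array left out in turn, the number of members called ranged from 5 to 7 in ciliated minus basal, 6 to 8 in club minus basal and 3 to 5 in ciliated minus club, against 6, 9 and 4 with all arrays. Members higher in club cells than in both others ranged from 3 to 5, and the basal-high count stayed at 1. With the replicate block, 6, 9 and 4 members were called and 4 were higher in club cells. Arrays of different types share only a replicate number: the deviations of equally numbered arrays correlated at 0.05 to 0.26 over genes, with 2 pairs per contrast. Why calls were lost was not tested, except that leaving out arrays leaves fewer degrees of freedom by construction.

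For genes called over the whole table, club minus basal gave 1629 with all arrays, 1050 with the 2 types alone or without either ciliated array, 783 without club replicate 1, 820 without club replicate 2 and 2534 without basal replicate 1. For genes called over the whole table, ciliated minus basal gave 3570, and 2196 or 1907 without ciliated replicate 1 or 2. For genes called over the whole table, ciliated minus club gave 3126, and 1732 or 1587 without ciliated replicate 1 or 2 and 1879 without club replicate 1. Of the 54 differences of the 18 related genes, 33 were called, 23 of them under every alternative, and no called difference changed sign. Among those not called, signs did change. Dmbt1 in ciliated minus basal went from 1.44 to -0.08 without basal replicate 2, and Reg4 in that contrast ranged from -0.06 to 0.27. In club minus basal, Grn ranged from -0.64 to 0.37 and Orm2 from -0.27 to 0.49.

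Counts called per list moved too. In ciliated minus basal the IL-17 and IL-22 list ranged from 6 to 12, the antimicrobial list from 3 to 8, the WAP list from 2 to 5, the protease list from 1 to 7 and the Reg list from 0 to 2. In club minus basal the IL-17 and IL-22 list ranged from 0 to 5, the IgA list from 4 to 8 and the WAP list from 1 to 3. In ciliated minus club the IL-17 and IL-22 list ranged from 3 to 13, the iron list from 2 to 8, and the antimicrobial and IgA lists up to 7, from 3 and 2. No scaling moved the median of all genes by as much as 0.1 log2 units. Single members moved more, as Wfdc2 in ciliated minus basal did, from 0.33 to -0.08 after quantile normalization was applied again. No detection calls were used, so whether levels near the lower quartile, as of Defb1 in luminal cells, exceed background was not measured.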
